A study of Arabidopsis thaliana with 12 samples.

Results

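The ATP-dependent phosphofructokinases of Arabidopsis thaliana are encoded by 7 nuclear genes, PFK1 to PFK7, and all 7 were read from a table of 33208 genes by their locus identifiers. Phosphofructokinase uses ATP to add a phosphate to fructose phosphate, a step that commits hexose to glycolysis. Under low oxygen, when mitochondria can no longer make enough ATP, plants draw on glycolysis and fermentation instead. PFK4 and PFK5 are known as plastid enzymes and the other members as cytosolic ones, and plants also have a cytosolic phosphofructokinase that uses pyrophosphate in place of ATP and works in both directions.

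The libraries were made from rosettes of wild-type and med25-1 plants, grown for 3 weeks on MS medium with 0.5% sucrose and then either exposed to 1% oxygen for 3 h or left under control conditions. MED25 belongs to Mediator, a large protein complex through which transcription factors reach RNA polymerase II, and med25-1 is a mutant line of that gene. The genotype and the oxygen treatment made 4 groups of 3 biological replicates, and no agent or second allele is labelled in any of them. The sources used here do not say how many plants made up a replicate.

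Each library held between 7170796 and 20501572 reads placed in genes. The third replicate of med25-1 hypoxia stood apart: it was the shallowest library, the others starting at 11360247 reads, and its 20 most abundant genes took 8.97% of the reads against 13.4% to 15.9% in the other 11. MED25 itself was read in every library, at 32.7 to 34.9 CPM (counts scaled to library size) in wild-type control, 20.7 to 31.2 in med25-1 control, 26.2 to 38.0 in wild-type hypoxia and 14.2 to 21.5 in med25-1 hypoxia. The transcript of the mutated gene was lower in med25-1 under hypoxia (log2 fold change -0.96 ± 0.20 SE, adjusted p = 0.0066 by edgeR's quasi-likelihood test) but did not pass under control conditions (-0.45 ± 0.20, adjusted p = 0.133), and the sources used here do not say where in the gene the lesion lies. The 5 leaf markers summed to 29527 to 32479 RPKM, a level per length and sequencing depth, in wild-type control, 22510 to 26831 in med25-1 control, 25036 to 28955 in wild-type hypoxia and 14976 to 25290 in med25-1 hypoxia, with the lowest sum in the third library of the last group. The ranges of the genotypes did not overlap under control conditions, nor did those of the conditions in wild type. Ranges of CPM were separate for 47.6% and 32.5% of all tested genes in these contrasts. In unscaled reads of wild type, RBCS1A, CAB3 and LHCB3 overlapped between the conditions. RBCS3B was lower in hypoxia (34056 to 46382 reads against 46870 to 91445), as was LHB1B2, which had at most 21 reads in any library. The 6 root markers summed to at most 0.106 RPKM in wild-type control, 0.139 in med25-1 control, 0.330 in wild-type hypoxia and 0.0573 in med25-1 hypoxia, and the 2 seed markers to at most 0.0727 RPKM in any library, with EXPA7, RSL4 and OLEO1 at 0 in all libraries. The 5 flower markers summed to 2.31 to 2.74 RPKM in wild-type hypoxia, 0.342 to 0.887 in wild-type control, 0.287 to 0.406 in med25-1 control and 0.767 to 1.35 in med25-1 hypoxia. In wild type the higher sum came from PI alone, with 101, 63 and 63 reads in hypoxia against 12, 9 and 18 in control. AP3, AG, SEP3 and AP1 each had at most 7 reads in any library of these groups. The part of these markers in the results below was not tested.

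Under hypoxia 2 of the 7 genes rose in both genotypes, PFK6 by 6.85-fold and 5.30-fold and PFK3 by 3.12-fold and 3.85-fold. Of all tested genes, 3.05% were called as higher in wild type and 1.88% in med25-1. PFK1, the most abundant member in untreated wild type, stayed between 55.8 and 70.9 CPM in all 12 libraries. The med25-1 line had more PFK3 than wild type in both conditions and more PFK4. Under hypoxia it also had more PFK5 and less PFK6. The PFK4 call under control was lost when any 1 control library was left out alone. The PFK4 and PFK6 calls under hypoxia were lost in the fit on the 2 hypoxia groups alone. Likewise, the PFK3 call for hypoxia in med25-1 was lost in the fit on the 2 med25-1 groups alone. The difference between genotypes in the size of the hypoxia response did not pass its test for any member. In whole rosettes, fewer cells of a type and less RNA per cell cannot be told apart.

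Levels of different members were compared per length, as the RPKM that the authors deposited. In wild-type control rosettes the 7 genes summed to 80.0 ± 0.811 RPKM (SD, n = 3). PFK1 (AT4G29220) was the highest at 30.3 ± 0.225 RPKM and made up 37.9% of the family sum. PFK4 (AT5G61580), a plastid member, followed at 16.7 ± 0.415 RPKM and held 20.9%. PFK7, PFK2, PFK5 and PFK6 lay close together at 8.13 ± 1.39, 7.06 ± 0.986, 6.68 ± 0.293 and 6.38 ± 0.220 RPKM, and the replicates of each neighbouring pair in this order overlapped. PFK3 (AT4G26270) was the lowest at 4.76 ± 0.169 RPKM, below all replicates of the next gene. PFK6 and PFK3, which rose under hypoxia, were thus the last 2 by mean in wild-type control, though PFK6 was not separate from PFK5. In med25-1 control PFK6 was the last by mean, but PFK3 was the third.

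**Figure D1:**
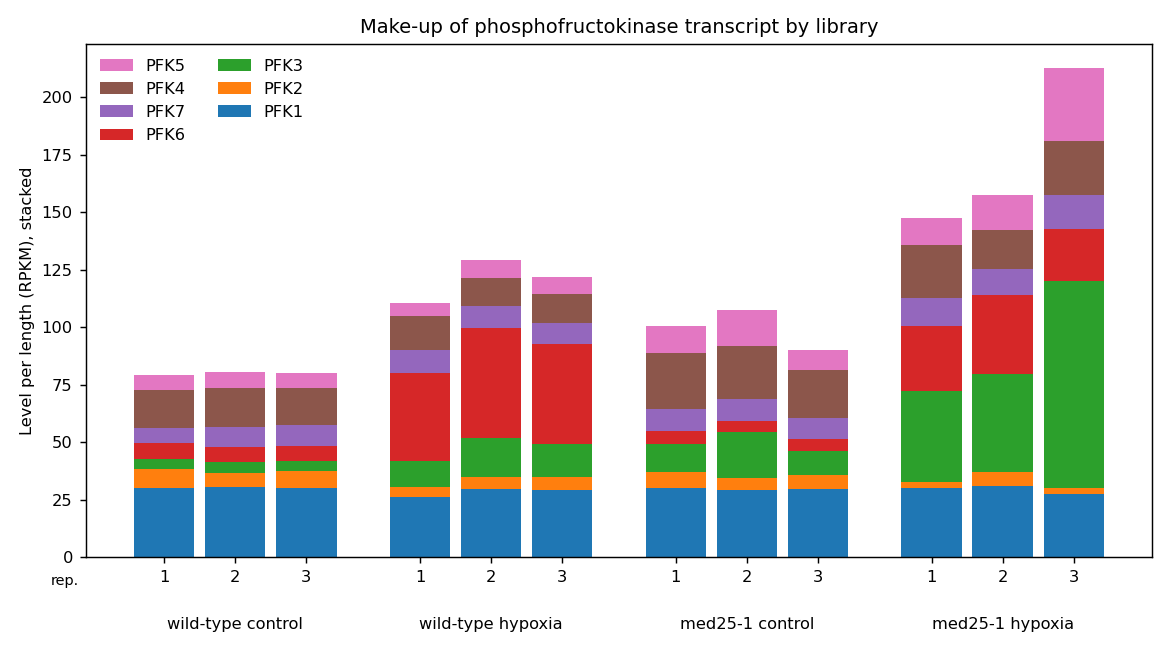
Stacked deposited RPKM of the 7 phosphofructokinase genes (vertical axis, RPKM) in each of the 12 libraries, by group and replicate. The PFK1 segment stays between 26.0 and 31.1 RPKM, PFK6 is the thickest segment in wild-type hypoxia, and PFK3 is the thickest in med25-1 hypoxia.

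PFK6 (AT4G32840), a cytosolic member on chromosome 4 (TAIR10, 15844576 to 15848552, minus strand, 13 exons), had the steepest hypoxia response. Its level in wild-type control was 15.6, 14.7 and 14.4 CPM in replicates 1 to 3, and in wild-type hypoxia 87.8, 118.0 and 100.4 CPM. All hypoxia libraries lay far above all control libraries. The log2 fold change was 2.78 ± 0.18 (6.85-fold, adjusted p = 2.7e-06 by edgeR's quasi-likelihood test with Benjamini-Hochberg adjustment over 18212 genes), which placed PFK6 at rank 16 of the tested genes by p. PFK6 shares 290 bases with a gene on the opposite strand, AT4G32830, and the strand on which reads were counted is not given. That neighbour was at 0.595 to 1.49 CPM in wild-type control and 1.41 to 1.62 CPM in wild-type hypoxia, far below PFK6 in the same libraries. PFK1 and PFK2 share 173 and 157 bases with opposite-strand genes as well. Without the counting strand, it is not known whether reads of the shared ends were kept apart between the genes. The neighbour of PFK1, AT4G29210, was at 15.2 to 15.5 CPM in wild-type control, 26.2 to 27.2 in med25-1 control, 9.10 to 14.7 in wild-type hypoxia and 13.3 to 31.9 in med25-1 hypoxia. The neighbour of PFK2, AT5G47800, was at 3.27 to 7.92, 3.00 to 5.37, 3.46 to 7.17 and 3.56 to 4.27 CPM in the same groups, close to the level of PFK2 itself in some libraries.

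PFK3, also cytosolic (chromosome 4, 13300778 to 13304440, minus strand, 13 exons, with no overlapping gene), was the other member that rose. Wild-type control gave 11.5, 11.5 and 11.2 CPM, and wild-type hypoxia gave 27.8, 44.0 and 34.9 CPM. The control libraries were nearly equal, the hypoxia libraries were spread, and the groups did not overlap. The log2 fold change was 1.64 ± 0.32 (3.12-fold, adjusted p = 0.00948, edgeR). These 2 genes were the members called out of 7 in wild type, both higher, where 6.48% of the 18212 tested genes were called in either direction, 3.05% as higher and 3.43% as lower.

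The other 5 members did not pass in wild type. PFK1 was at 70.9, 67.5 and 67.3 CPM in control and 57.9, 70.7 and 66.1 CPM in hypoxia, so the groups overlapped, with a log2 difference of -0.08 ± 0.11. PFK5, a plastid member, also overlapped, at 16.1, 16.5 and 15.9 CPM against 13.5, 19.5 and 17.6 CPM. PFK4 was at 38.3, 37.1 and 36.2 CPM in control and 32.1, 29.5 and 28.3 CPM in hypoxia. Its groups did not overlap, yet the log2 difference of -0.31 ± 0.13 missed the threshold (adjusted p = 0.200, edgeR). PFK2 (-0.46 ± 0.27, adjusted p = 0.427, edgeR) and PFK7 (0.25 ± 0.14, adjusted p = 0.372, edgeR) likewise had separate groups without passing. Ranges of CPM were separate for 5 of the 7 members, against 32.5% of all tested genes. The median log2 difference over the 7 members was 0.06, beside 0.00 over all tested genes.

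**Figure D2:**
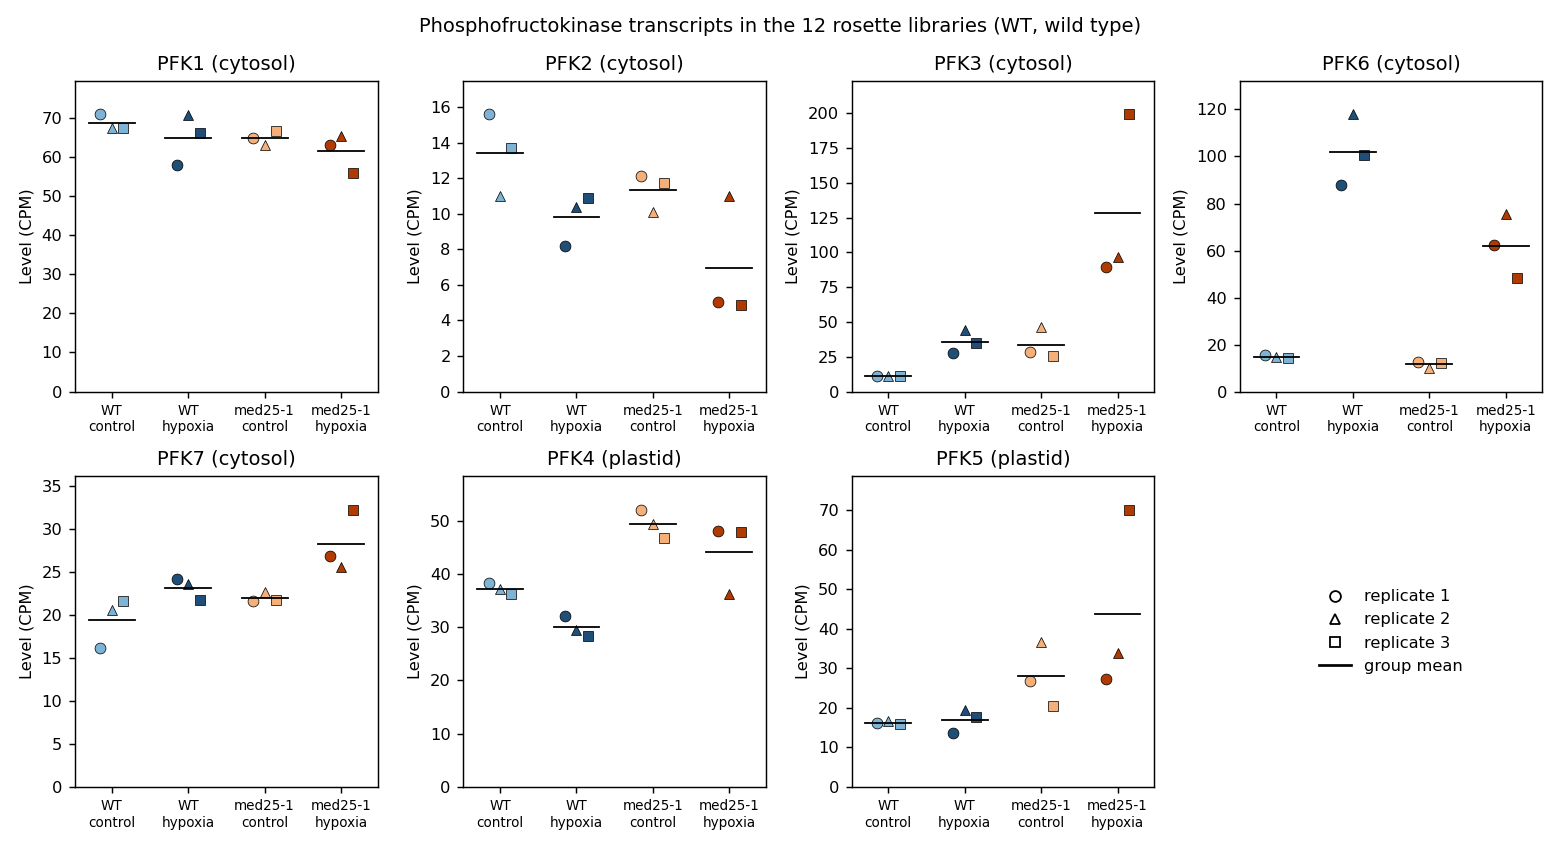
Level of each gene in CPM (vertical axis from 0, its own scale per panel) in the 4 groups. Symbols are replicates 1 to 3 and bars are group means; PFK6 in wild type goes from 14.4 to 15.6 CPM in control to 87.8 to 118.0 CPM in hypoxia, and PFK3 reaches 199.3 CPM in the third med25-1 hypoxia library.

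The 150 bases before the annotated start of the PFK6 and PFK3 genes are shown because these were the members that rose under hypoxia, and those of PFK5 because its level moved with that of PFK3 between replicates. They were read from the RefSeq genome TAIR10.1 and run 5′ to 3′ on the coding strand, at chr4:15848553-15848702 (minus strand), chr4:13304441-13304590 (minus strand) and chr2:9545133-9545282 (plus strand). Capitals mark TTGAC, the core of the W-box known to be bound by WRKY factors, and GGTTT, the GT motif described in promoters of anaerobic genes, the latter as AAACC where it lies on the other strand.
PFK6: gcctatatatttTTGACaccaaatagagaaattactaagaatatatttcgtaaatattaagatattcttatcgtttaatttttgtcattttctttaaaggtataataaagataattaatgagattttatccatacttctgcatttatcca
PFK3: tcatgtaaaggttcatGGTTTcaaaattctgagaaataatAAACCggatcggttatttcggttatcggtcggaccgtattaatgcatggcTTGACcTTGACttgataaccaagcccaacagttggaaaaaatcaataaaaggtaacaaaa
PFK5: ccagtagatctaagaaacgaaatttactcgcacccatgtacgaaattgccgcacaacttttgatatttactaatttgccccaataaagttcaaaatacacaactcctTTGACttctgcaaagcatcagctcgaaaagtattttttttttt

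PFK3 had 2 copies of TTGAC, 60 and 54 bases before the start, and 2 of GGTTT, 134 and 110 bases before it. PFK6 had 1 TTGAC at 138 bases and PFK5 had 1 at 43 bases, and neither held GGTTT. PFK4, which did not pass for hypoxia, held 2 copies of GGTTT as well, 67 and 21 bases before its start, and no TTGAC. The windows of PFK1, PFK2 and PFK7 held neither motif. Both strands were searched, and no 2 of these matches overlapped. Over 32907 windows of the same length, 30.1% held TTGAC at least once and 6.23% held it at least 2 times, and 39.4% held GGTTT at least once and 11.6% at least 2 times. GCCGCC, the GCC box of ethylene response factors, occurred in 1.11% of all windows and CACGTG, the G-box, in 4.30%, and neither was in the window of any of the 7 members. A match describes letters in these windows and not a bound site.

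In med25-1, PFK6 and PFK3 rose under hypoxia as well. PFK6 was at 12.7, 10.2 and 12.3 CPM in med25-1 control and at 62.5, 75.4 and 48.4 CPM in med25-1 hypoxia, with no overlap. The log2 fold change was 2.41 ± 0.18 (5.30-fold, adjusted p = 1.3e-05, edgeR). PFK3 was at 28.5, 46.1 and 25.4 CPM in control and 89.6, 97.0 and 199.3 CPM in hypoxia, again with no overlap but with the third hypoxia library far above the rest. Its log2 fold change was 1.95 ± 0.31 (3.85-fold, adjusted p = 0.00426, edgeR), and 1.49 (adjusted p = 0.00359, edgeR) without the third med25-1 hypoxia library. Fitted on the 2 med25-1 groups alone, PFK3 did not pass (1.96, adjusted p = 0.0702, edgeR). The background was 5.28% of all tested genes called in either direction, 1.88% as higher and 3.4% as lower, beside 2 of the 7 members, both higher.

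None of the other 5 members passed in med25-1. PFK7 was at 21.7, 22.6 and 21.7 CPM in control and 26.9, 25.5 and 32.3 CPM in hypoxia, which did not overlap (0.36 ± 0.14, adjusted p = 0.138, edgeR). PFK7, PFK3 and PFK6 were the 3 of 7 members with separate ranges, against 22.7% of all tested genes. PFK2 was at 12.1, 10.1 and 11.8 CPM in control and 5.03, 11.0 and 4.88 CPM in hypoxia, where the second library lay at the control level and the other 2 well under it. Its log2 difference of -0.67 ± 0.28 did not pass (adjusted p = 0.165, edgeR), and it became -1.19 (adjusted p = 0.00949, edgeR) without the second hypoxia library. PFK5 was at 26.7, 36.6 and 20.4 CPM in control and 27.2, 33.9 and 70.1 CPM in hypoxia. The difference of 0.64 ± 0.31 (adjusted p = 0.232, edgeR) rested on the third hypoxia library and was 0.14 without it. PFK1 and PFK4 overlapped between the conditions, with log2 differences of -0.08 ± 0.11 and -0.17 ± 0.12. The median over the members was 0.36, beside 0.02 over all genes.

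**Figure D3:**
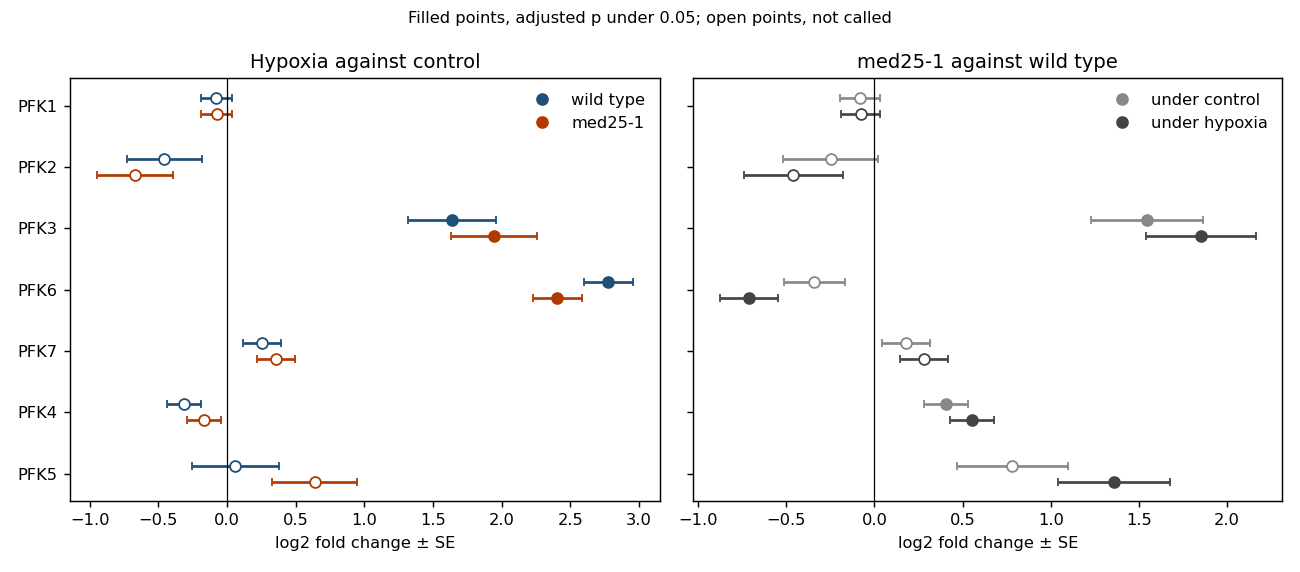
log2 fold change ± SE (horizontal axis) of each gene for hypoxia against control (left) and med25-1 against wild type (right), from edgeR's quasi-likelihood fit; filled points passed an adjusted p of 0.05. PFK3 and PFK6 are filled for hypoxia in both genotypes, and PFK6 lies below 0 in the genotype comparison under hypoxia.

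Without hypoxia, med25-1 rosettes already held more PFK3 than wild type. The 3 med25-1 control values of 25.4 to 46.1 CPM lay above the wild-type range of 11.2 to 11.5 CPM, with a log2 fold change of 1.55 ± 0.32 (2.92-fold, adjusted p = 0.00778, edgeR). The untreated mutant was thus at about the level that wild type reached under hypoxia, 27.8 to 44.0 CPM. PFK4, a plastid member, was at 52.1, 49.3 and 46.8 CPM in med25-1 against 36.2 to 38.3 CPM in wild type and was called as higher by a small margin (0.41 ± 0.12, 1.33-fold, adjusted p = 0.0432, edgeR). That call was lost in 9 of 22 alternative fits, among them those leaving out any 1 of the 6 control libraries, with adjusted p up to 0.147, while the log2 fold change stayed between 0.37 and 0.46. PFK3 and PFK4 were 2 of 7 members called, both higher, where 17.1% of all tested genes were called in either direction, 8.98% as higher and 8.13% as lower.

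PFK5 in med25-1 control, at 26.7, 36.6 and 20.4 CPM, also lay above the wild-type range of 15.9 to 16.5 CPM, but its spread was wide and it did not pass (0.78 ± 0.31, adjusted p = 0.109, edgeR). PFK6 was at 10.2 to 12.7 CPM against 14.4 to 15.6 CPM, separate and lower, without passing (-0.34 ± 0.17, adjusted p = 0.203, edgeR). PFK1 at 63.1 to 66.5 CPM lay just under the wild-type 67.3 to 70.9 CPM (-0.08 ± 0.11, adjusted p = 0.652, edgeR). PFK7 was at 21.7 to 22.6 CPM against 16.2 to 21.6 CPM, and PFK2 overlapped. Ranges were separate for 6 of 7 members, against 47.6% of all tested genes. The median over the members was 0.18, beside -0.02 over all genes.

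Under hypoxia 4 members differed between the genotypes, 3 higher and 1 lower in med25-1, where 21.6% of all tested genes were called, 12% as higher and 9.62% as lower. PFK3 stood at 89.6, 97.0 and 199.3 CPM in med25-1 against 27.8, 44.0 and 34.9 CPM in wild type (1.85 ± 0.31, 3.61-fold, adjusted p = 0.00201, edgeR). PFK5 stood at 27.2, 33.9 and 70.1 CPM against 13.5, 19.5 and 17.6 CPM (1.36 ± 0.32, 2.57-fold, adjusted p = 0.0112, edgeR). Both groups were separate, and in both genes the third med25-1 library was the highest. Without that library the log2 fold changes were 1.39 for PFK3 and 0.86 for PFK5, and both calls held (adjusted p = 0.00201 and 0.0225, edgeR).

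PFK4 under hypoxia was at 48.1, 36.2 and 48.0 CPM in med25-1 against 32.1, 29.5 and 28.3 CPM in wild type (0.55 ± 0.13, 1.47-fold, adjusted p = 0.0101, edgeR). PFK6 was the member that was lower in med25-1, at 62.5, 75.4 and 48.4 CPM against 87.8, 118.0 and 100.4 CPM. The groups did not overlap, and the log2 fold change was -0.71 ± 0.17 (0.611-fold, adjusted p = 0.0111, edgeR), or -0.56 without the third med25-1 library (adjusted p = 0.0243, edgeR). Fitted on the 2 hypoxia groups alone, PFK4 and PFK6 did not pass (adjusted p = 0.0740 and 0.0824, edgeR). PFK7 was separate at 25.5 to 32.3 CPM against 21.7 to 24.3 CPM but did not pass (0.28 ± 0.14, adjusted p = 0.159, edgeR), so ranges were separate for 5 of 7 members, against 36.4% of all tested genes. PFK1 and PFK2 overlapped between the genotypes. PFK2 gave -0.46 ± 0.28 (adjusted p = 0.259, edgeR), and -0.98 (adjusted p = 0.00693, edgeR) without the second med25-1 hypoxia library.

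Whether the genotypes differed in the size of their hypoxia response was tested by the interaction term. None of the 7 members passed, and no gene of the 18212 did (0% called by edgeR, with 910 genes at an unadjusted p under 0.05; DESeq2 called 16 genes and limma voom 0). For PFK6 the response was smaller in med25-1 by 0.37 on the log2 scale (interaction -0.37 ± 0.24, approximate 95% interval -0.84 to 0.10, adjusted p = 0.930, edgeR). For PFK3 it was 0.30 ± 0.44 (interval -0.55 to 1.16, adjusted p = 0.963, edgeR), and -0.15 without the third med25-1 hypoxia library. PFK5 gave 0.58 ± 0.44 (interval -0.29 to 1.45, adjusted p = 0.947, edgeR). The intervals of PFK3 and PFK5 both include a response 2-fold larger in med25-1, which these data do not resolve. PFK1 had the narrowest interval, -0.31 to 0.31.

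The make-up of the family changed with these levels. From 80.0 ± 0.811 RPKM in wild-type control, the sum over the 7 genes was 120.4 ± 9.32 RPKM in wild-type hypoxia, and for med25-1 it was 99.2 ± 8.75 RPKM without and 172 ± 35.0 RPKM with hypoxia. In wild-type hypoxia PFK6 led at 42.9 ± 4.95 RPKM, 35.6% of the sum, above PFK1 at 28.3 ± 1.96 RPKM or 23.5%. PFK3 at 14.4 ± 2.74 RPKM and PFK4 at 13.3 ± 1.20 RPKM came next and overlapped. In med25-1 hypoxia PFK3 led instead, at 57.2 ± 28.4 RPKM or 32.0% of the sum (26.7% to 42.3% by library). PFK1 at 29.5 ± 1.86, PFK6 at 28.4 ± 5.87 and PFK4 at 21.2 ± 3.47 RPKM followed, each overlapping the next. PFK3 moved from the seventh place of 7 in wild-type control to the third in med25-1 control and to the first in med25-1 hypoxia. PFK1 kept between 26.0 and 31.1 RPKM in all 12 libraries, while its share of the sum went from 37.9% in wild-type control to 17.7% in med25-1 hypoxia.

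The plastid members PFK4 and PFK5 together made up 29.2 ± 0.703% of the family sum in untreated wild type and 34.7 ± 1.84% in untreated med25-1. Their part of the sum under hypoxia was 16.8 ± 1.43% for wild type and 23.3 ± 2.79% for med25-1. This share was lower in each hypoxia library than in any control library, and higher in each med25-1 library than in any wild-type library of the same condition. The share is relative to the family sum, which was higher under hypoxia in both genotypes. PFK4 and PFK5 themselves were not called for hypoxia by edgeR in either genotype, so a lower share does not mean a lower level. PFK2 was at the bottom of the order in both hypoxia groups, at 5.09 ± 0.676 RPKM in wild type and 3.92 ± 1.91 RPKM in med25-1.

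Replicates of a group did not vary in the same way for all members. In wild-type control PFK3 lay between -0.023 and 0.015 of its group mean on the log2 scale. In the other groups it spread widely, and PFK5 spread with it. The second med25-1 control library lay above its group mean by 0.52 for PFK3 and 0.43 for PFK5, and the third med25-1 hypoxia library by 0.73 and 0.80. The second wild-type hypoxia library was the highest of its group in both genes as well, by 0.33 and 0.22. PFK6 deviated the other way in those 2 med25-1 libraries, at -0.19 and -0.34, but the same way in the second wild-type hypoxia library, at 0.22. The third med25-1 hypoxia library is also the shallowest and the one with the lowest share of reads in its top 20 genes, and the part of this in the spread was not tested. With that library and the second med25-1 control library both left out, an alternative chosen after the data were seen, the genotype difference under control was 1.26 for PFK3 and 0.55 for PFK5 (adjusted p = 0.00064 and 0.0452, edgeR). Under hypoxia it was then 1.44 and 0.91 (adjusted p = 1.4e-04 and 0.00494, edgeR). PFK2 had its own outlying value, 0.75 above the group mean in the second med25-1 hypoxia library.

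**Figure D4:**
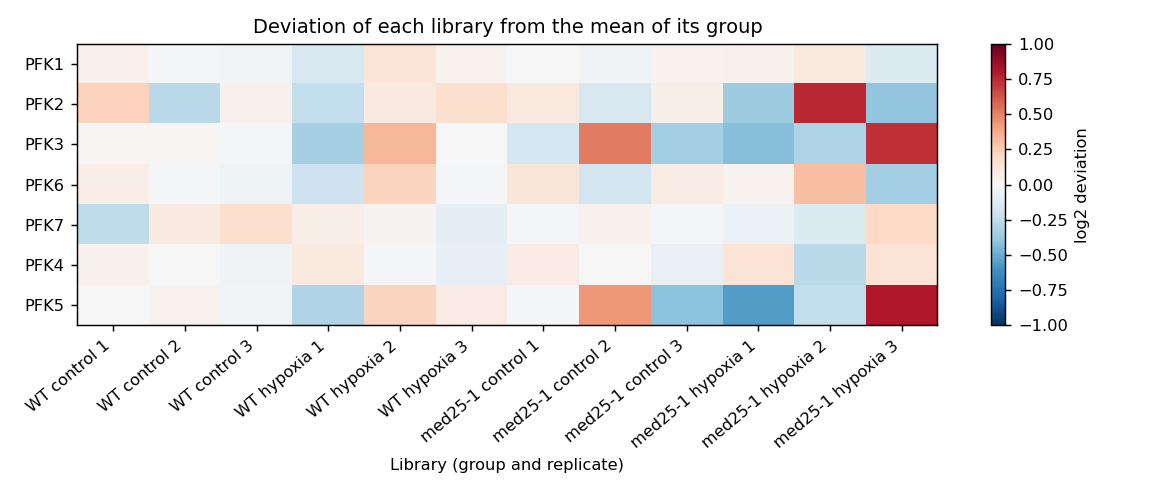
Deviation of each library from its group mean (colour, log2 scale) for the 7 genes (rows) across the 12 libraries (columns). PFK3 and PFK5 share the red cells in the second med25-1 control library and the third med25-1 hypoxia library, where PFK6 is blue, and the red PFK2 cell is the second med25-1 hypoxia library.

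Reads in introns gave a second readout of the same genes. For PFK6 the intron share of all gene reads, summed over replicates, was 3.55% in wild-type control (95% Clopper-Pearson interval 2.26% to 5.28%), 4.26% in wild-type hypoxia (3.66% to 4.93%), 3.73% in med25-1 control (2.38% to 5.55%) and 3.89% in med25-1 hypoxia (3.20% to 4.70%). For PFK3 it was 0.604% in wild-type control (0.125% to 1.75%, from 3 reads of 497) and 2.27% in wild-type hypoxia (1.56% to 3.19%). In med25-1 PFK3 had 0.952% in control (0.545% to 1.54%) and 1.68% in hypoxia (1.33% to 2.09%). By library, the PFK3 share was 0% to 1.42% in wild-type control and 2.02% to 2.64% in wild-type hypoxia, and 0.591% to 1.22% against 1.52% to 1.92% in med25-1, so the hypoxia libraries lay above the control libraries in both genotypes. An exact two-sided permutation test over libraries gave p = 0.1 for each, the smallest p that 3 against 3 libraries can give, or 0.2 adjusted over the 4 comparisons made. For PFK6 the library ranges overlapped in both genotypes (exact permutation p = 0.9 in wild type and 0.7 in med25-1, both 0.9 adjusted). Over all genes the intron share by library was 1.59%, 1.91% and 1.85% in wild-type control and 2.20%, 2.53% and 1.70% in wild-type hypoxia. In med25-1 it was 1.77%, 1.87% and 1.87% in control and 1.91%, 1.68% and 1.60% in hypoxia. The part of this background in the PFK3 share was not tested. The Clopper-Pearson intervals were made from reads summed over replicates, so they leave out the spread between libraries. By library, the PFK6 share in wild-type control ran from 1.90% to 7.14%, beyond its interval on both sides. The reads also carry no molecular identifiers and are not independent molecules.

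The pyrophosphate-dependent enzyme carries out the same step without ATP. None of its 4 subunit genes (AT1G20950, AT1G76550, AT1G12000 and AT4G04040) was called in any contrast. Of all tested genes, 6.48% and 5.28% were called for hypoxia in wild type and in med25-1. Between the genotypes 17.1% were called under control and 21.6% under hypoxia, and 0% for the interaction. A count of 0 beside these shares does not set the 4 subunit genes apart. Their log2 differences with hypoxia ran from -0.19 to 0.14 in wild type and from 0.00 to 0.51 in med25-1. AT4G04040, the most read of them, gave -0.01 ± 0.13 in wild type and 0.00 ± 0.13 in med25-1. F2KP (AT1G07110), the enzyme that makes and breaks down the signal metabolite fructose-2,6-bisphosphate, gave -0.04 ± 0.17 (adjusted p = 0.940, edgeR) and -0.49 ± 0.17 (adjusted p = 0.116, edgeR). It was lower in med25-1 than in wild type under hypoxia (-0.74 ± 0.17, adjusted p = 0.0117, edgeR), at 92.8 to 149 CPM against 177 to 219 CPM.

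Of 33 listed genes for the steps between free hexose and triose phosphate, 29 were tested. In wild-type hypoxia 2 rose and 1 fell, 10.3% of those tested beside 6.48% of all genes, with a median log2 difference of -0.07 beside 0.00 over all genes. The fructokinase gene AT2G31390 went from 7.60 to 9.66 CPM in control to 27.4 to 51.2 CPM in hypoxia (2.20 ± 0.25, adjusted p = 3.0e-04, edgeR). The cytosolic aldolase gene FBA6 (AT2G36460) rose by 0.60 ± 0.13 (adjusted p = 0.0141, edgeR), and FBA5 (AT4G26530), another aldolase gene, fell by 1.55 ± 0.37 (adjusted p = 0.0273, edgeR). In med25-1 hypoxia 1 rose and 2 fell, also 10.3% beside a background of 5.28%, with a median of -0.07 beside 0.02. AT2G31390 rose by 1.53 ± 0.24 (adjusted p = 0.00382, edgeR), while FBA5 fell by 2.02 ± 0.38 (adjusted p = 0.0105, edgeR) and the hexokinase-like gene HKL1 (AT1G50460) fell by 1.22 ± 0.26 (adjusted p = 0.021, edgeR).

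Between the genotypes, 2 of the listed genes were higher and 3 lower in med25-1 under control conditions, a share of 17.2% that was near the 17.1% of all genes, with a median of -0.16 beside -0.02. AT2G31390 was higher (1.23 ± 0.25, adjusted p = 0.00691, edgeR), as PFK3 was, and the fructokinase gene AT1G66430 (-1.11 ± 0.26, adjusted p = 0.0152, edgeR) and the aldolase gene AT4G26520 (-0.97 ± 0.26, adjusted p = 0.0238, edgeR) were lower. Under hypoxia 2 were higher and 5 lower, 24.1% beside 21.6% of all genes, with a median of -0.27 beside -0.05, and 5 were called with the replicate number as a block. The fructose bisphosphatase gene AT5G64380, whose product acts against phosphofructokinase, was lower (-1.31 ± 0.22, adjusted p = 0.00183, edgeR), and so was the hexokinase gene HXK2 (AT2G19860, -0.75 ± 0.17, adjusted p = 0.0108, edgeR). AT5G64380 was also lower in med25-1 under control (-0.76 ± 0.21, adjusted p = 0.029, edgeR). The other fructose bisphosphatase genes, AT1G43670 and AT3G54050, were not called between the genotypes in either condition. The fructokinase gene AT1G06020 was called in both conditions from very few reads. It had 1 read in the 3 wild-type control libraries and 32 in med25-1 control, a ratio of 27.5 per total reads with a 95% counting interval from 4.60 to 1121. It had 0 reads in wild-type hypoxia and 24 in med25-1 hypoxia, at least 8.29-fold higher against a floor of 3 reads over the group. No listed gene was called in the interaction.

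The genes whose pattern over the 12 libraries was most like that of PFK3, by the root mean square difference of centred log2 CPM, were AT5G44568 (0.297), PPCK1 (AT1G08650, 0.360) and AT5G19240 (0.362). PPCK1 encodes a protein kinase known to phosphorylate phosphoenolpyruvate carboxylase. For PFK6 they were AT5G65207 (0.319), AT5G49120 (0.329) and ETR2 (AT3G23150, 0.343), the last an ethylene receptor gene. These are rankings over the same libraries and carry no test.

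The authors' deposited table also held their own comparisons, made with Baggerley's test on proportions per the file headers. In the authors' deposited table PFK6 was 6.79-fold higher under hypoxia in wild type and 5.22-fold in med25-1, with a corrected p of 4.6e-06 in the latter. PFK3 in the authors' deposited table was 3.11-fold higher in wild type (corrected p = 1.1e-06) and 3.82-fold in med25-1, where the corrected p was 0.0659. For med25-1 against wild type, the authors' deposited table gave PFK3 as 2.85-fold higher under control (corrected p = 0.00475) and 3.50-fold under hypoxia (0.0439). The same authors' deposited table gave corrected p values under 0.05 to 4 differences that edgeR did not call: PFK1 and PFK6 between the genotypes under control (signed folds of -1.10 and -1.29), PFK4 with hypoxia in wild type (-1.24) and PFK7 with hypoxia in med25-1 (1.26). It gave none to PFK5 between the genotypes, at 0.0660 under control and 0.185 under hypoxia.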

How the data were processed

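Poly(A) RNA of 12 rosette samples was sequenced; per the labels' protocols the library kit keeps strand. The authors deposited 1 table with counts of reads per gene, uniquely placed and not normalized, beside exon and intron counts, RPKM values per exon length and quantile-normalized gene reads (a signal not tested here), per the file headers. The authors' RPKM divides by a total 1.03 to 1.09 times that of exon reads. The authors also deposited a score per comparison, the signed fold change of Baggerley's test, with corrected p-values. The submitters' processing notes name TAIR10 as the build. Not given in the sources used here: aligner, counter and counting strand. The labels name no batch. Of the columns beside the identifier, 207 were not used. All 7 genes had the positions of the RefSeq annotation. Reads at more than 1 locus were 1.18% of PFK1 exon reads and at most 0.104% for the others.

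Gene counts were fitted with edgeR 4.0.16 in R 4.3.3 (filterByExpr, TMM, 18212 genes kept, all 7 members among them, 1 mean per group over all 12 libraries). Tests were two-sided with Benjamini-Hochberg adjustment over all genes at 0.05. The SE is the log2 fold change over the root of F and is approximate, and CPM uses TMM library sizes. RPKM shares were described, not tested. Alternatives were other scalings, filters, count types and tools (DESeq2 1.42.0, limma 3.58.1), a replicate block and leaving libraries out. The code was tested on simulated data. The members and the gene lists were chosen with earlier results of these data known. All 7 members were named in each contrast, and of the listed upper glycolysis genes at most the 4 called with the smallest p, besides the pyrophosphate-dependent enzyme, F2KP and, between the genotypes, the fructose bisphosphatase genes. Same-numbered libraries of the 2 hypoxia groups deviated together from their group means (r = 0.490, 0.114 and 0.208), each over the limit of 0.1, so for the genotype contrast under hypoxia the numbers were taken to pair the samples, from the data and not from the labels. Those of the other contrasts were not (no more than 1 of 3 pairs over 0.1). The exact permutation test of intron shares was added after the data were seen. Replicates differed by more than sampling noise (chi-square per degree of freedom 4.17 to 81.9), and p-values measure the spread between these samples, labelled as biological replicates.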

Additional observations from a re-analysis of the deposited data

How the results depend on the processing

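Across 22 alternatives per contrast, and 21 for the interaction, which a fit on 2 groups cannot give, PFK6 was called in all for hypoxia in wild type (2.66 to 2.87) and in med25-1 (2.24 to 2.55). PFK3 was called in all for hypoxia in wild type (1.46 to 1.79), genotype under control (1.24 to 1.72) and genotype under hypoxia (1.39 to 2.05), and in 21 of 22 for hypoxia in med25-1, the exception being the fit on the 2 groups alone. PFK5 under hypoxia between genotypes was called in all 22 (0.86 to 1.61) and, under control, in 4. limma voom also called PFK4 for hypoxia in wild type (-0.36, adjusted p = 0.00363). Of 763 refitted member values, 733 kept direction and call, 7 gained a call, 12 lost one and 11 changed sign, none of them called.

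The sign changes are given with the range over all alternatives in brackets. PFK5 for hypoxia in wild type was at -0.053 (-0.053 to 0.20) without wild-type hypoxia replicate 2. Without both the second med25-1 control and the third med25-1 hypoxia library, PFK1 was at 0.015 (-0.13 to 0.015) for hypoxia in med25-1. For genotype under hypoxia PFK1 was then at 0.035 (-0.16 to 0.035). The others were 3 interaction terms. These were PFK3 at -0.15 (-0.15 to 0.61) and PFK7 at -0.00022 (-0.00022 to 0.22) without med25-1 hypoxia replicate 3, and PFK1 (-0.074 to 0.083) at -0.0053 without the low-count filter and at -0.024, -0.017, -0.074, -0.016 and -0.047 without wild-type control replicate 1, med25-1 control replicate 2, wild-type hypoxia replicate 1, med25-1 hypoxia replicate 1 and med25-1 hypoxia replicate 2. The causes were not tested.

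Members called went from 2 to 1 for hypoxia in med25-1 and from 4 to 2 for genotype under hypoxia in the fit on the 2 groups alone, and from 2 to 1 for genotype under control without the low-count filter. Leaving out 1 library gave 2 to 3, 1 to 3 and 4 to 5 for hypoxia in med25-1, genotype under control and genotype under hypoxia, and 2 throughout for hypoxia in wild type. Listed upper glycolysis genes called, for the 4 contrasts in the order of the report, were 10 by limma voom, 6 on the 2 groups and 6 without both those libraries (3 in the report, 1 to 5 leaving out 1 library), then 5 by DESeq2 and 1 on the 2 groups (3, 2 to 6), then 12 by limma voom and 10 on the 2 groups (5, 2 to 7), and 1 on the 2 groups and 4 without both libraries (7, 4 to 11). Over all genes, the counts of 1181, 961, 3115 and 3933 became 5461, 1121, 6774 and 4188 by limma voom, 2408, 175, 5177 and 1819 on the 2 groups, and 559 to 1933, 323 to 1841, 1285 to 5027 and 2214 to 5124 leaving out 1 library. DESeq2 called 1905 for hypoxia in med25-1, with 51.2% higher against 35.6% by edgeR. Without both named libraries, 2136 were called for hypoxia in wild type, 1483 in med25-1 and 1 for the interaction.

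Over all groups, 6 of 18 same-numbered pairs of libraries correlated over 0.1 (r from -0.31 to 0.49, and 4 of 12 libraries closest to their own number), 3 of them between the 2 hypoxia groups. That was the one contrast for which the numbers were taken to pair the samples, and the labels give no pairing. Even there, wild-type hypoxia 2 correlated more with med25-1 hypoxia 3 (r = 0.189) than with its own number (r = 0.114). A replicate block called 2, 2, 2, 4 and 0 members in the 5 contrasts, as without it, and 4, 3, 5, 5 and 0 listed genes. Under hypoxia between the genotypes, AT4G38970 and AT5G51830 lost their calls with the block (adjusted p = 0.0531 and 0.0553, edgeR), and the block changed no call of a member. The block was fitted over all 12 libraries, so it also covered the control groups and was not a fit of the hypoxia pairs alone. The adjusted p-values given above for the members between the genotypes under hypoxia are from fits without the block. PFK2 had the fewest reads of the 7 members, 1895 exon reads over all libraries.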
